A study of Caenorhabditis elegans with 46 samples.

Results

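MicroRNA genes of Caenorhabditis elegans are numbered in the order in which they were described, and the arms numbered from miR-4000 to miR-5999 are among the late additions to the annotation. All entries of the deposited count tables whose name is cel-miR- followed by a number in that range, with any suffix or arm, were taken. They came to 90 arms of 47 hairpins, out of 473 worm arms of 242 hairpins. The rule used names only and no measured values, although it was chosen with earlier results of these data known. Every one of the 90 was listed in each of the 46 libraries, 88 reached at least 1 count in some library, and 61 passed the filter on low counts and were tested.

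A microRNA is cut from a short hairpin transcript, and either strand of the hairpin stem, called the 5p or the 3p arm by its position, can be kept in an Argonaute protein as the guide that represses messenger RNAs. The partner arm is usually degraded. Some hairpins are a whole short intron, which splicing itself releases; such microRNAs are called mirtrons. Plant microRNAs carry a methyl group on the last nucleotide, added by the enzyme HEN1, whereas worm microRNAs end in a free 2',3' diol, which sodium periodate oxidises, so that the RNA can no longer be ligated to the 3' adapter. HENN-1 is the worm's own methyltransferase and is known to act on piRNAs and on a class of endogenous small interfering RNAs.

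The libraries were small RNA libraries of whole first-stage larvae, so a change in bulk RNA does not tell fewer cells of a type from less RNA per cell. Each genotype was sequenced without treatment ("untreated") and after periodate ("oxidised"). In 8 genotypes the henn-1 gene was null, written henn-1(0), and a transgene made the Arabidopsis enzyme, Ath-HEN1: broadly under rps-5, in all neurons under rab-3, unc-31 or rgef-1, in the intestine under elt-2, in pharyngeal muscle under myo-2, in body wall muscle under myo-3, or in ASE, a pair of taste neurons. In 3 genotypes henn-1 was present: the wild type N2, which carried no transgene, and worms with the myo-3 or the ASE transgene. Each genotype had 2 libraries per treatment, apart from rps-5 with 3, of which 2 came from the same line. The transgenic libraries of a genotype mostly came from separate transgenic lines, and nothing in the labels says that the wild-type libraries came from separate cultures, so p-values measure the spread between lines or libraries, which may in part be technical. No genotype analysed here carried the henn-1 null allele without a transgene.

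Untreated libraries held 10674772 to 43302426 counts over all arms and oxidised ones 425711 to 35253784. The smallest were oxidised: in the 6 such libraries with henn-1 present, 3 counts were worth 2.08 to 7.05 CPM (counts scaled to the library's summed counts over all arms). Markers of the driver's tissue were higher after oxidation in the following examples, with 1 genotype given per marker. The muscle microRNA miR-1-3p went from a mean of 26830 to 295400 CPM in myo-3 henn-1(0), the neuronal miR-124-3p from 8578 to 54150 in rgef-1, the intestinal miR-60-3p from 24400 to 70220 in elt-2, and lsy-6-3p, which marks 1 of the ASE neurons, from 78.3 to 2979 in ASE henn-1(0). In rab-3 worms miR-60-3p was still at 25860 CPM after oxidation, from 31900. Changes are log2 ratios of oxidised to untreated libraries, fitted across all 395 tested arms with edgeR's quasi-likelihood test on TMM-scaled library sizes (TMM is a trimmed mean of log ratios), with Benjamini-Hochberg adjustment and a threshold of 0.05; "rose" and "fell" are used for changes past it. The scale matters where few arms survive: the median arm moved by -2.20 in the wild type with TMM but by 0.19 with relative log expression (RLE) factors and -0.11 with total counts, so CPM per library is given beside the fitted changes, together with RLE values for many of the changes whose direction or call they alter.

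The late-numbered arms were rare. In untreated libraries their summed share of all counts was 0.0322 to 0.0424%, with a median of 0.0374%, and the median arm stood at 0.266 CPM, beside 37.3 CPM for the 243 arms whose number has at most 3 digits, 0.967 CPM for the 75 arms with 4 digits beginning with 1 or 2, and 0.264 CPM for the 55 arms whose number begins with 8. A mean of at least 10 CPM was reached by 7 arms and of at least 1 CPM by 30, while 34 lay under 0.1 CPM. The most abundant was miR-4813-3p, with 138 ± 20.8 CPM (SD over 23 untreated libraries) and a range of 104 to 180.7, which placed it 94th among all arms. Next came miR-4816-3p at 57.8 ± 10.8 CPM, and then miR-4808-3p at 18.2 ± 5.09, miR-5546-3p at 14.2 ± 2.79, miR-4816-5p at 12.6 ± 3.24, miR-4805-3p at 12.0 ± 3.09 and miR-4807-3p at 10.2 ± 1.69. From miR-4808-3p downwards neighbours in this order lay within 1 SD of each other. Of the 30 arms with at least 1 CPM, 23 had an SD over untreated libraries under 50% of their mean. The other 7 were the 4 arms of mir-5592-1 and mir-5592-2, miR-4920-3p, miR-4926-3p and miR-4927-3p; miR-5592-1-3p ranged from 0.930 to 30.8 CPM and miR-4920-3p from 0.377 to 13.4.

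**Figure D1:**
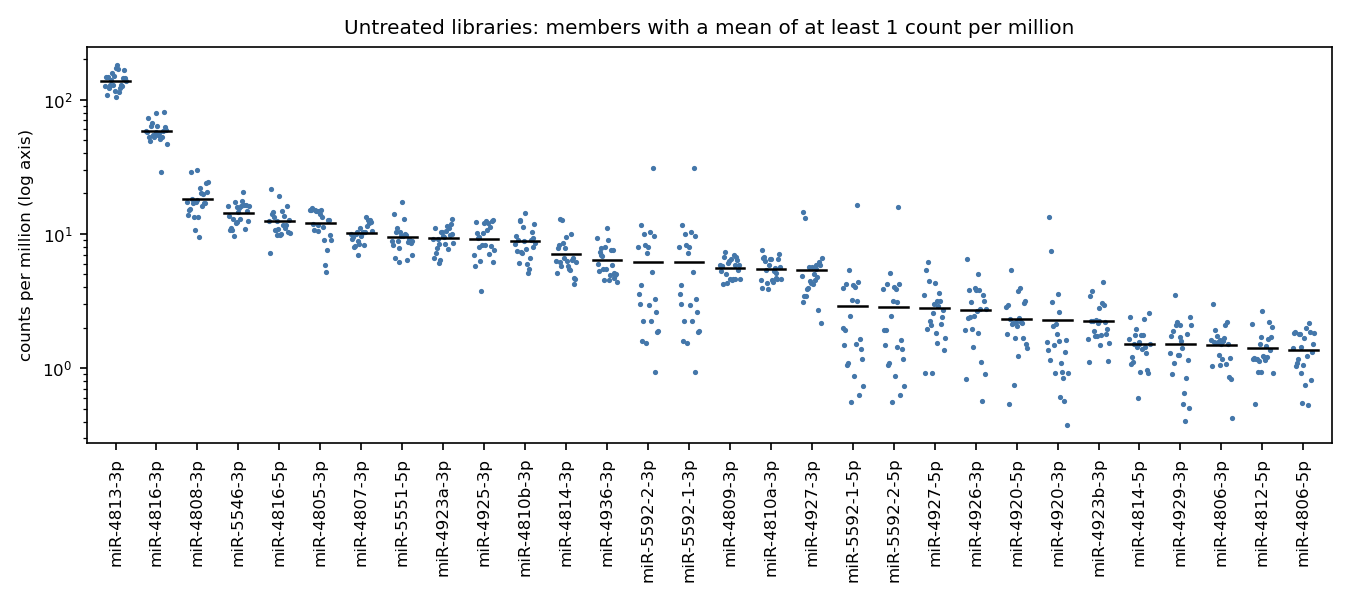
Abundance without treatment of the 30 arms that averaged at least 1 CPM, on a log axis of CPM. Each dot is 1 of the 23 untreated libraries and each bar the mean; miR-4813-3p and miR-4816-3p stand above the rest, and the dots of miR-5592-1-3p spread from 0.930 to 30.8.

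The 3p arm carried most of the reads in 31 of the 39 hairpins that had both arms listed and at least 10 untreated counts, and the 5p arm in 8. In 19 hairpins at least 90% of the untreated counts lay on 1 arm. The share on the 3p arm was 99.5% for mir-4813, 99.9% for mir-4805, 99.8% for mir-4925 and 96.4% for mir-5546, against 1.46% for mir-5551. The hairpins mir-4806, with 51.0% on 3p, and mir-4920, with 47.4%, were near balance. After oxidation the 3p share of mir-4816 differed between genotypes. In the null worms it was 47.5 to 74.2% per oxidised library, and in each of the 8 genotypes all oxidised libraries lay below the untreated ones. In the wild type it was 93.9 and 92.8%, from 82.3 and 88.7%, and with ASE and henn-1 present 96.3 and 92.7%, from 83.1 and 85.7%, while with myo-3 and henn-1 present 80.4 and 74.1% overlapped 81.3 and 68.2%. For mir-4813 the 3p share ranged from 76.7 to 99.7% oxidised and from 98.9 to 99.9% untreated. For mir-4927, in the 13 oxidised libraries with at least 10 counts, it was 74.2 to 100%, against 43.7 to 85.9% untreated. These shares were not tested.

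All 47 hairpins were placed in the WBcel235 annotation. Chromosome X held 14, chromosome II 10, chromosome IV 7, chromosomes I and III 6 each, and chromosome V 4. By position, 25 lay between protein-coding genes, 15 in an intron on the strand of the host gene, 5 in an intron on the opposite strand, 1 (mir-4813) in a 3' UTR, that of idhg-1, and 1 (mir-4938) opposite an exon of Y37B11A.3. Overlap with other kinds of gene was not examined. A whole intron was the hairpin in 5 cases: mir-4816 (65 nt, in T09B4.2), mir-4920 (56 nt, sph-1), mir-4924 (54 nt, T11G6.5), mir-4926 (52 nt, ari-1.3) and mir-4927 (56 nt, M01F1.4). Of the hairpins on chromosome X, 9 lay on the plus strand within the stretch from position 1872466, the start of mir-4807, to 1880038, the end of mir-4921.

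Of the 61 tested arms, 59 (96.7%) changed on oxidation in at least 1 genotype, as did 388 of all 395 tested arms (98.2%). The other 2 were miR-4923a-5p and miR-4925-5p. With RLE factors miR-4925-5p was called in elt-2 (3.52, adjusted p = 0.0244). miR-5593-1-3p and miR-5593-2-3p have identical counts in every library, so they add 2 members but only 1 signal to these counts. In the wild type 21 rose (34.4%, beside 20.8% of all tested arms) and 18 fell (29.5%, beside 48.9%; 69.6% of all arms changed either way). With rps-5 25 rose and 11 fell (41% and 18%, beside 34.9% and 22.5%, or 57.5%), with rab-3 21 and 22 (34.4% and 36.1%, beside 36.2% and 36.7%, or 72.9%), with unc-31 19 and 16 (31.1% and 26.2%, beside 31.4% and 36.7%, or 68.1%) and with rgef-1 23 and 15 (37.7% and 24.6%, beside 39.5% and 32.9%, or 72.4%). In these last 4 genotypes the share that rose was close to that of all arms. Without library 32953 or 32950, 15 or 23 members in all changed with unc-31.

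With elt-2 23 arms rose and 14 fell (37.7% and 23%, beside 28.1% and 46.8% of all arms, or 74.9% either way), with myo-2 13 and 19 (21.3% and 31.1%, beside 20.5% and 46.3%, or 66.8%), and with myo-3 henn-1(0) 11 and 21 (18% and 34.4%, beside 18.7% and 50.9%, or 69.6%). With myo-3 and henn-1 present 20 rose and 7 fell (32.8% and 11.5%, beside 27.3% and 31.6%, or 59%). With ASE henn-1(0) 4 rose and 6 fell (6.56% and 9.84%, beside 17.5% and 20%, or 37.5%), and with ASE and henn-1 present 23 and 17 (37.7% and 27.9%, beside 23.5% and 48.4%, or 71.9%). Without library 42754, 21 members in all changed with myo-2, and without 42747 or 42750, 6 or 3 changed with ASE henn-1(0). These splits depend on the scale, and with DESeq2 no member was called lower in the wild type. With RLE factors they were 25 up and 2 down in the wild type (41% and 3.28%, beside 34.9% and 21% of all arms), 30 and 11 with elt-2 (49.2% and 18%, beside 34.2% and 39%), and 19 and 7 with myo-2 (31.1% and 11.5%, beside 28.6% and 28.1%). They were 25 and 7 with myo-3 henn-1(0) (41% and 11.5%, beside 31.9% and 29.9%). For ASE henn-1(0) they were 6 and 4 (9.84% and 6.56%, beside 19.7% and 10.9%), and for ASE with henn-1 present 28 and 4 (45.9% and 6.56%, beside 40% and 22.3%).

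**Figure D2:**
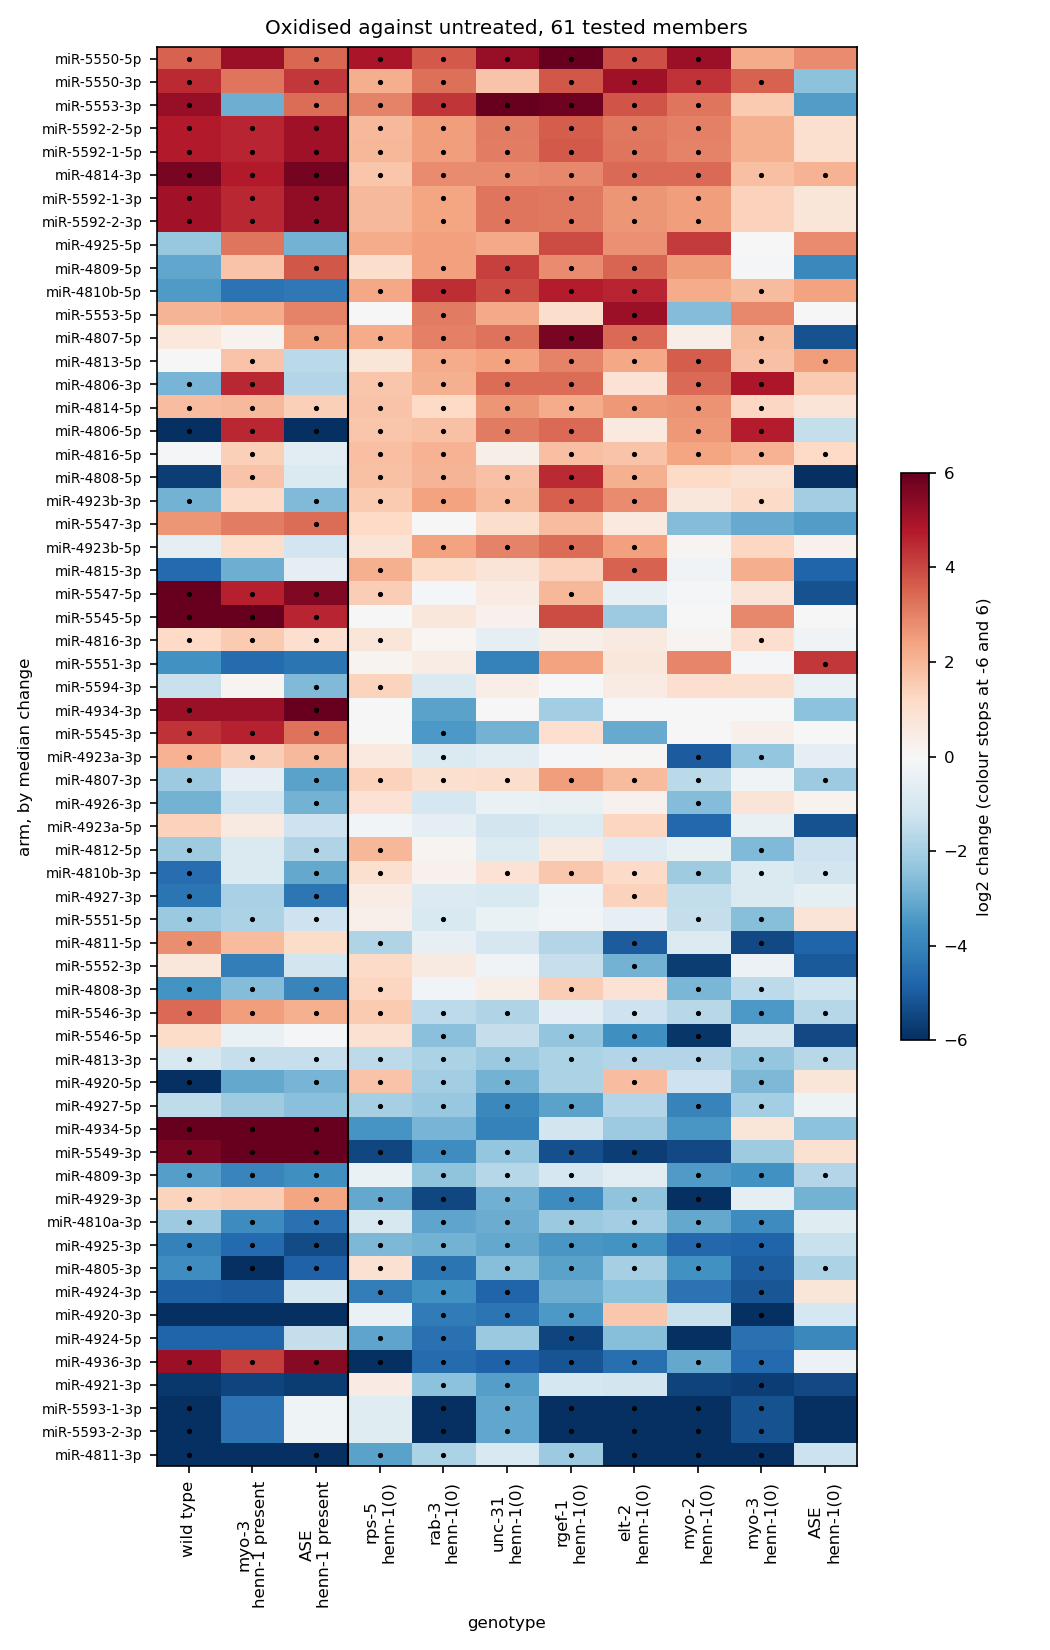
Log2 change on oxidation (TMM scale) of the 61 tested arms, 1 per row, in the 11 genotypes, 1 per column; red is higher and blue lower after oxidation, the colours stop at 6 in either direction, a dot marks a change past the threshold and the line separates the 3 genotypes with henn-1 present (left) from the 8 null ones. miR-4814-3p is red with a dot in all 11 columns, and miR-4936-3p is red in the 3 left columns and blue with a dot in 7 of the 8 others.

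For a few members the direction on oxidation differed between worms with henn-1 present and null worms. After oxidation the summed share of the late-numbered arms was 0.814 and 0.583% in the 2 wild-type libraries, 0.485 and 0.403% in ASE with henn-1 present, and 0.121 and 0.325% in myo-3 with henn-1 present, against 0.0330 to 0.0915% in the null genotypes. Other rare arms also took larger shares in some oxidised libraries: those whose number begins with 8 reached up to 0.92%, from at most 0.0326% untreated, and those with 4 digits beginning with 1 or 2 reached up to 1.56%, from at most 0.199%. These shares were not tested. The oxidised libraries with henn-1 present were shallow, with 425711 to 1444791 counts, and so were those of ASE henn-1(0), with 1011043 and 1055616; the part of depth was not tested. In all 3 genotypes with henn-1 present 15 members rose: miR-4814-3p and -5p, miR-4816-3p, miR-4923a-3p, miR-4934-5p, miR-4936-3p, both arms of mir-5545, miR-5546-3p, miR-5547-5p, miR-5549-3p and the 4 arms of mir-5592-1 and mir-5592-2. Of these, 6 rose in no null genotype: miR-4923a-3p, miR-4934-5p, miR-4936-3p, both arms of mir-5545, and miR-5549-3p. In untreated libraries miR-4934-5p, miR-5545-3p and miR-5545-5p reached at most 0.250, 0.138 and 0.0477 CPM. They passed the filter on low counts only through oxidised libraries with henn-1 present, where they are high. Their place in both lists was therefore partly fixed by the filter. The 15 were 24.6% of the tested members, but the 4 arms of mir-5592-1 and mir-5592-2 share reads and are not independent. Among all 395 tested arms 61 did so (15.4%), and among those whose number begins with 8 the share was 34%. The 6 were 9.84% of the members, beside 18 of all arms (4.56%) and 12.8% of the arms whose number begins with 8. With RLE factors 17 members (27.9%) and 83 of all arms (21%) rose in all 3 genotypes, 6 members (9.84%) and 20 of all arms (5.06%) of them in no null genotype.

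The clearest case was miR-4936-3p, the 3p arm of a hairpin between protein-coding genes on the plus strand of chromosome III, chrIII:3249151-3249260 in WBcel235. The wild-type libraries had 9.31 and 5.96 CPM untreated and 1438 and 961 CPM oxidised. With ASE and henn-1 present the values were 4.67 and 4.98 CPM against 887 and 713 CPM, and with myo-3 and henn-1 present 7.56 and 5.82 against 120 and 131. All oxidised libraries with henn-1 present lay above all untreated ones; the fitted changes were 5.13 ± 0.47 (SE) in the wild type (adjusted p = 5.1e-12), 5.48 ± 0.48 with ASE (1.2e-12) and 4.15 ± 0.46 with myo-3 (5.4e-10).

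In the null worms miR-4936-3p went the other way. With rps-5 it fell from 5.30, 7.38 and 6.93 CPM to 0.213, 0 and 0; the 304 untreated and 3 oxidised counts make it 101-fold lower on the TMM-scaled sizes, with a 95% interval of 34.1 to 490 that covers counting error only. It also fell with rab-3, from 7.88 and 6.89 to 0.340 and 0.491 CPM (log2 change -4.61 ± 0.50, adjusted p = 6.7e-10), with elt-2, from 11.0 and 8.93 to 0.552 and 0.281 CPM, and with myo-3, from 7.54 and 5.08 to 0.398 and 0.0933 CPM. Among the null genotypes 7 showed this fall. With ASE henn-1(0) the arm stood at 5.06 and 4.37 CPM untreated and at 3.96 and 7.58 CPM oxidised, which overlapped (log2 change -0.35 ± 0.52, adjusted p = 0.63), although those oxidised values rested on 4 and 8 counts.

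The interaction of oxidation with henn-1 was tested within each transgene. For myo-3 the null strains were MLC900 and MLC901 and those with henn-1 present MLC889 and MLC890. For ASE they were MLC749 and MLC750, and MLC702 and MLC703. In these tests henn-1 and other differences between the strains cannot be told apart. For miR-4936-3p the log2 change in null worms minus that with henn-1 present was -8.80 ± 0.73 for myo-3 (adjusted p = 1.3e-12) and -5.83 ± 0.67 for ASE (5.6e-09). The myo-3 difference of -8.80 was -7.42 without library 49402 (oxidised, henn-1 present; libraries are named by the authors' numbers) and -9.96 without library 49406 (oxidised, null). With RLE factors the differences were -7.86 for myo-3 and -7.75 for ASE.

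miR-5549-3p, from a hairpin between protein-coding genes on the minus strand of chrIII:6971976-6972085, was nearly absent without treatment and rose in the same 3 genotypes. Values of 0.366 and 0.360 CPM in the wild type became 104 and 69.1, with ASE and henn-1 present 0.427 and 0.278 became 145 and 112, and with myo-3 and henn-1 present 0.364 and 0.134 became 19.3 and 15.2. The changes were 5.70 ± 0.54, 6.61 ± 0.55 and 6.00 ± 0.62 (adjusted p = 4.4e-11, 1.9e-12 and 4.5e-10); the last was 6.84 without library 49401, an untreated one. In the null genotypes no oxidised library exceeded 0.989 CPM. miR-5549-3p fell in 5 of the 8; the values with myo-2 (-5.40, adjusted p = 0.060), myo-3 (-2.14 ± 1.12, 0.087) and ASE (0.90 ± 1.12, 0.58) were not called, and the fall with unc-31 was lost without library 32950 or 32953. With rps-5 16 untreated counts over 3 libraries met 0 oxidised ones, at least 5.29-fold lower when 3 counts over the group are taken as the floor. The difference between null and henn-1 present was -8.14 ± 1.19 for myo-3 (adjusted p = 1.8e-06), between -11.05 without 49406 and -6.63 without 49402, and -5.71 ± 1.06 for ASE (2.5e-05).

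miR-5547-5p, from chrII:12238602-12238711 on the plus strand, rose from 0.157 and 0.194 to 47.0 and 54.3 CPM in the wild type (6.04 ± 0.64, adjusted p = 1.7e-10). The corresponding values were 0.162 and 0.303 to 44.3 and 38.7 CPM with ASE and henn-1 present (5.56 ± 0.62) and 0.509 and 0.335 to 11.5 and 11.8 CPM with myo-3 and henn-1 present (4.67 ± 0.67). No oxidised null library exceeded 1.34 CPM: with rgef-1 the values were 0.250 and 0.230 untreated and 0.965 and 1.34 oxidised, a rise of 2.01 ± 0.73 (adjusted p = 0.014) that was not called without library 37024 or 37025 (0.0671 and 0.0564). The rise of 1.49 with rps-5 (adjusted p = 0.040) was not called with RLE factors (1.26, 0.0807) or without 1 of 4 libraries (0.059 to 0.113). ASE henn-1(0) had 0 counts in both oxidised libraries and 3 and 5 untreated; the fitted difference from ASE with henn-1 present was -10.79 ± 2.33 (adjusted p = 0.00015) and its size is no bound, because of those zeros. For myo-3 the difference of -3.90 ± 1.08 (0.0074) was lost without library 49402 (-2.48, 0.0923), 49405 (-2.27, 0.709) or 49406 (-3.03, 0.0538), and was -5.93 without 49408.

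Fewer reads stood behind the other members of this set. miR-4934-5p (chrIV:9825312-9825421, minus strand) had 3 counts over both untreated wild-type libraries and 33 over the 2 oxidised ones, where it reached 11.8 and 33.1 CPM; this is a ratio of 153 on the TMM scale, with a counting interval of 47.9 to 779. With myo-3 and henn-1 present 2 and 19 counts gave a ratio of 99.6 (24.0 to 882). With ASE and henn-1 present it rose from 0.116 and 0.0505 to 28.5 and 23.7 CPM (6.27 ± 0.75, adjusted p = 8.7e-09, and 6.89 without library 40634). In null worms miR-4934-5p had 1 count in each of 2 oxidised libraries and 0 in the other 15. The arms of mir-5545, which lies in an intron of dnj-27, rested on fewer than 6 counts per oxidised library with henn-1 present: miR-5545-3p stood at 4.70 and 6.49 CPM in the wild type, from 0.0698 and 0.0693, and its rise of 4.31 was not called without library 34093 (adjusted p = 0.069), while miR-5545-5p reached 8.78 and 5.82 CPM from 0.0280 and 0.00161. Both arms of mir-5545 had fractional counts, and how these arose was not given in the sources used here.

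miR-5546-3p, from an intron of arx-1, is among the 4 most abundant members and rose with every henn-1 present genotype. It went from 16.1 and 13.6 to 719 and 661 CPM in the wild type (3.42 ± 0.38, adjusted p = 4.7e-10), from 17.6 and 20.6 to 101 and 125 with myo-3 (2.49 ± 0.37, 3.5e-07) and from 16.5 and 14.8 to 223 and 267 with ASE (2.12 ± 0.36, 3.1e-06). It also rose with the broad rps-5 driver in null worms, from 10.6, 11.0 and 10.7 to 37.6, 43.6 and 36.3 CPM (1.59 ± 0.29, adjusted p = 3.2e-05). It fell with myo-3 henn-1(0), from 16.4 and 10.8 to 1.19 and 1.21 CPM (-3.46 ± 0.42, 4.0e-09), and with rab-3, from 13.0 and 9.57 to 4.79 and 5.62 CPM (-1.58 ± 0.36, 0.00023). Its falls with elt-2 (-1.23) and myo-2 (-1.65) were not called with RLE factors (-0.42 and -0.40, adjusted p = 0.271 and 0.372). The difference between null and henn-1 present was -5.95 ± 0.56 for myo-3 (adjusted p = 3.3e-11; -4.64 without library 49402) and -3.83 ± 0.56 for ASE (5.4e-07; -4.45 without library 42748). The other arm, miR-5546-5p, averaged under 1 CPM and was not called in any of the 3 genotypes with henn-1 present on the TMM scale. With RLE factors it was called higher in the wild type (3.50, adjusted p = 8.64e-05) and with ASE and henn-1 present (2.23, 0.0243).

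miR-4923a-3p, from the chromosome X stretch, rose less in these 3 genotypes, and fell in 3 of the 8 null ones (rab-3, myo-2 and myo-3). The fall with myo-3 was lost with RLE factors (-0.61, adjusted p = 0.118) and that with rab-3 with total counts (-0.42, 0.216) and without library 32795 or 32798. The wild type had 9.18 and 6.57 CPM untreated and 181 and 116 oxidised (2.07 ± 0.34, adjusted p = 1.8e-06), ASE with henn-1 present 11.9 and 12.8 against 164 and 183 (1.96 ± 0.34, 3.5e-06), and myo-3 with henn-1 present 11.5 and 7.70 against 26.4 and 31.2 (1.5 ± 0.35, 0.00034). With myo-2 it fell from 8.34 and 10.5 to 0.369 and 0.222 CPM, 225 counts against 2, which is a ratio of 33.5 with a counting interval of 9.15 to 278. With rgef-1, at 10.2 and 10.3 CPM against 11.6 and 10.7, the groups differed by -0.06 ± 0.33 (adjusted p = 0.88), and with elt-2 by 0.08 ± 0.33 (0.84; 0.90 with RLE factors, where it was called, 0.012). Null against henn-1 present gave -3.82 ± 0.51 for myo-3 (adjusted p = 1.5e-07, and -2.50 without library 49402) and -2.53 ± 0.51 for ASE (5.9e-05).

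**Figure D3:**
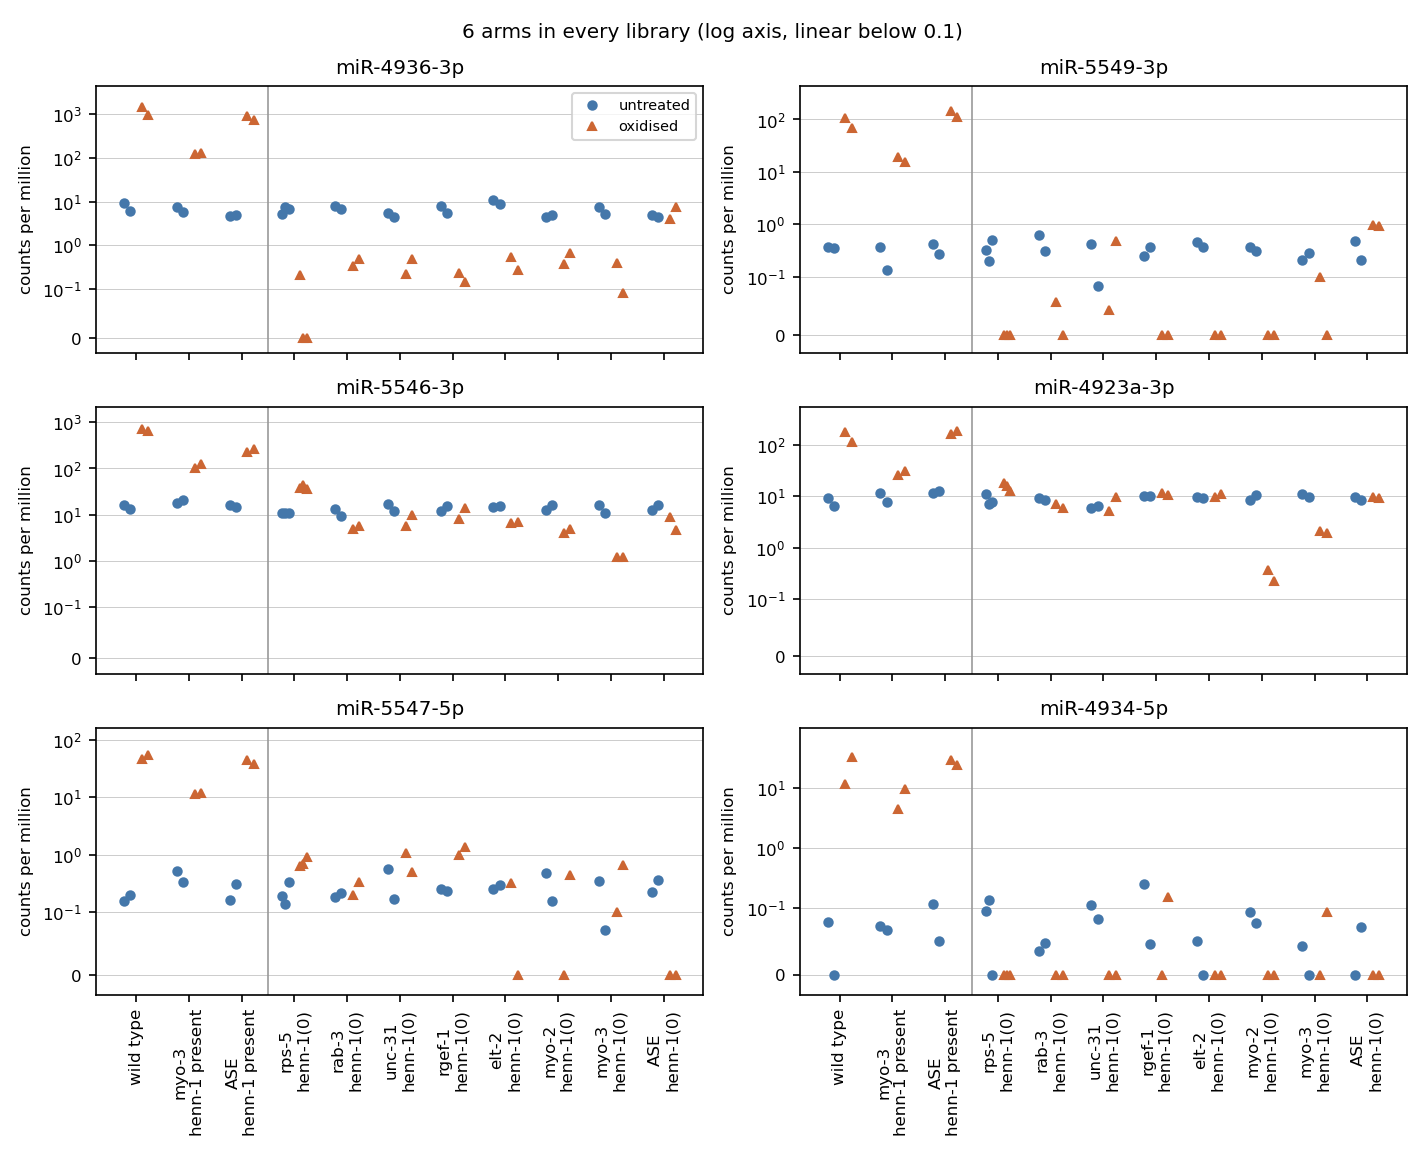
CPM per library of miR-4936-3p, miR-5549-3p, miR-5546-3p, miR-4923a-3p, miR-5547-5p and miR-4934-5p in the 11 genotypes, on an axis that is logarithmic above 0.1 and linear below; circles are untreated and triangles oxidised libraries. In the 3 genotypes with henn-1 present the triangles lie above the circles in every panel, and for miR-4936-3p they lie below them in 7 of the 8 null genotypes.

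Over all members the interaction test called 7 arms lower and 0 higher in myo-3 null worms than in myo-3 worms with henn-1 present (11.5% and 0%, beside 14.2% and 0.253% of all tested arms, or 14.4% either way), and 11 lower and 11 higher for ASE (18% each, beside 14.2% and 43.8%, or 58%). With RLE factors the counts were 7 lower and 3 higher for myo-3 (11.5% and 4.92%, beside 11.6% and 13.4% of all arms), and 20 lower and 0 higher for ASE (32.8% and 0%, beside 22.3% and 15.7%). Without library 49402, 11 arms differed for myo-3, and with the transgenic line as a block 11 arms were lower. The arms lower in null worms by both tests were miR-5546-3p, miR-5547-5p, miR-4814-3p, miR-5549-3p, miR-4936-3p and miR-4923a-3p, 6 of the 7 for myo-3 and 6 of the 11 for ASE; the other for myo-3 was miR-4811-5p, at 0 in both oxidised null libraries and not called without library 49404 (adjusted p = 0.158). The arms higher in ASE null worms depended on the scale, since none of them was called higher with RLE factors.

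Null worms and worms with henn-1 present were also compared in the untreated libraries, averaged over myo-3 and ASE. They were different strains, so henn-1 and the strain cannot be told apart here. The untreated ASE libraries held 13254452 and 14186154 counts in null worms and 43302426 and 39573519 with henn-1 present. None of the 61 members differed between null and henn-1 present worms (beside 0.253% of all tested arms, 1 arm), and DESeq2 called none either; 4 members had an unadjusted p under 0.05. The lowest p belonged to miR-4929-3p, with 0.852 and 1.79 CPM in myo-3 null and 2.41 and 2.12 in ASE null worms against 0.655, 0.402, 1.16 and 0.505 with henn-1 present (1.54 ± 0.41, adjusted p = 0.053). Between ASE worms with henn-1 present and the wild type no member's change on oxidation differed by the interaction test (0%, beside 4.3% of all arms higher and 0.253% lower, or 4.56%). Here too 4 members had an unadjusted p under 0.05, and DESeq2 called 1 lower. The lowest of these was that of miR-5546-3p, whose rise in ASE worms minus that in the wild type was -1.30 ± 0.50 (adjusted p = 0.18).

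The only member that rose in all 11 genotypes was miR-4814-3p (1.64% of those tested). Of all tested arms 8 did so (2.03%). This arm, from an intron of W06F12.2 (chrIII:13728414-13728513, minus strand), went from 6.30 and 5.10 to 1285 and 1249 CPM in the wild type (5.68 ± 0.47, adjusted p = 6.0e-13) and from 4.20 and 4.68 to 881 and 840 CPM with ASE and henn-1 present (5.72 ± 0.47, 3.3e-13). With myo-3 and henn-1 present it reached 170 and 267 CPM from 5.38 and 9.91. The null genotypes were lower but moved the same way: 7.90, 8.33 and 12.9 to 34.2, 37.4 and 36.2 CPM with rps-5 (1.65 ± 0.33, adjusted p = 8.4e-05), 12.7 and 8.56 to 136 and 131 with unc-31 (2.84 ± 0.42), and 5.81 and 5.46 to 62.0 and 58.2 with myo-2 (3.42 ± 0.43, 1.1e-08). With ASE henn-1(0) the rise to 48.5 and 20.8 CPM, from 4.60 and 6.13 (2.07 ± 0.43, 0.00016), was not called without library 42748 (1.22, 0.059). No oxidised library of any genotype overlapped the untreated ones. The rise in null worms minus that with henn-1 present was -2.95 ± 0.57 for myo-3 (adjusted p = 0.00011, and -1.80 without library 49402) and -3.66 ± 0.58 for ASE (2.0e-06, and -4.51 without 42748). The myo-3 difference was not called without the filter on low counts (-1.51, 0.073).

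The partner arm miR-4814-5p was lower throughout, at 1.66 and 2.41 CPM untreated and 37.6 and 27.2 oxidised in the wild type (1.84 ± 0.53, adjusted p = 0.0022). It rose in 10 of the 11 genotypes, with 2.71 ± 0.54 in myo-2 (1.76 and 1.38 to 10.7 and 9.93 CPM, 4.3e-05), but not in ASE henn-1(0) (0.76 ± 0.65, 0.38). The calls with rab-3, myo-3 (null and henn-1 present), rgef-1 and ASE with henn-1 present were each lost when 1 library was left out; the rise of 1.96 with myo-3 and henn-1 present was 0.34 without library 49404. The 3p share of mir-4814 over all libraries was 81.9% untreated and 91.4% oxidised.

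The hairpins mir-5592-1 and mir-5592-2 lie opposite each other in an intron of aakb-1 on chromosome X, and their entries share reads, so their values are uncertain and are not independent. miR-5592-1-3p rose in the wild type from 7.97 and 3.57 to 1095 and 614 CPM (5.02 ± 1.19, adjusted p = 0.00055; 5.73 without library 32793) and with ASE and henn-1 present from 3.27 and 2.63 to 520 and 357 CPM (5.31 ± 1.21, 0.00035). With myo-3 and henn-1 present its lines lay far apart before and after treatment, at 5.16 and 30.8 CPM untreated and at 127 and 757 CPM oxidised. The rises in null worms (rab-3, unc-31, rgef-1, elt-2 and myo-2) were each lost when 1 library was left out. With the line as a block miR-5592-1-3p was also called higher with rps-5 (1.98 ± 0.45, 0.000483) and with myo-3 henn-1(0) (1.76 ± 0.58, 0.00785).

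Falls were led by the most abundant member. miR-4813-3p, whose hairpin lies in the 3' UTR of idhg-1 (chrIII:4571640-4571716, plus strand), was lower after oxidation in all 11 genotypes on the TMM scale. With rps-5 it fell from 107.5, 146 and 122 to 47.0, 64.7 and 42.5 CPM (-1.57 ± 0.31, adjusted p = 7.9e-05), with rab-3 from 128 and 140 to 55.5 and 42.2 (-1.90 ± 0.38, 4.6e-05), with unc-31 from 158 and 127 to 52.7 and 52.3 (-2.23 ± 0.39, 6.4e-06), and with rgef-1 from 149 and 116 to 43.1 and 36.1 (-1.92 ± 0.39). The falls with myo-2, myo-3 (null and henn-1 present) kept their sign but were not called with RLE factors (-0.49, -0.59 and -0.68). In the wild type and in ASE worms with henn-1 present the CPM was higher after oxidation, 294 and 316 from 126 and 148, and 201 and 229 from 144 and 165, so the TMM changes of -0.95 and -1.38 turned to 1.41 and 0.99 with RLE factors. No direction holds over the scales in those 2 genotypes.

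Its partner miR-4813-5p, at about 1 CPM or less untreated, rose in 8 genotypes while the 3p arm did not. With myo-2 it went from 1.31 and 1.15 to 16.2 and 14.5 CPM (3.63 ± 0.58, adjusted p = 1.2e-06), with rgef-1 from 0.499 and 0.598 to 6.27 and 3.43 (2.97 ± 0.59, 3.9e-05; 2.23 without library 37023), and with rab-3 from 0.963 and 0.566 to 4.91 and 4.80 (2.22 ± 0.53, 0.00036). In the wild type 42 untreated and 3 oxidised counts, and with rps-5 1.18, 0.474 and 1.00 against 2.85, 1.37 and 1.10 CPM, gave no called change (adjusted p = 0.99 and 0.19). The calls with ASE henn-1(0) and with myo-3, null and henn-1 present, were lost when 1 library was left out.

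Of the whole-intron hairpin mir-4816, the 5p arm rose in 8 genotypes on the TMM scale and the 3p arm in 5. miR-4816-5p rose with myo-2 from 9.93 and 14.8 to 46.8 and 73.6 CPM (2.35 ± 0.42, adjusted p = 9.4e-06; 1.69 without library 42756). It also rose with rab-3 from 13.2 and 10.7 to 73.9 and 66.7 (2.1 ± 0.41, 3.3e-05), with rps-5 from 21.8, 13.9 and 14.5 to 89.98, 54.5 and 67.8 (1.83 ± 0.34, 3.1e-05) and with myo-3 henn-1(0) from 11.1 and 11.7 to 57.4 and 39.1 (2.1 ± 0.42). The wild type had 12.5 and 7.26 against 47.0 and 35.4 CPM, a change of -0.09 ± 0.43 on the TMM scale (0.85) but of 2.34 ± 0.40 with RLE factors, where it was called (5.11e-06). The same held for ASE with henn-1 present, at -0.65 with TMM (0.17) and 1.72 ± 0.39 with RLE factors (0.000213). miR-4816-3p rose in the wild type from 58.2 and 57.0 to 721 and 456 CPM (1.19 ± 0.39, adjusted p = 0.0066) and with myo-3 and henn-1 present from 50.6 and 29.1 to 148 and 99.0 (1.55 ± 0.39, 0.00077). Its rises with rps-5, ASE with henn-1 present and myo-3 henn-1(0) were each lost when 1 library was left out, and that with rps-5 also with RLE factors (0.48, 0.177). With rab-3, 63.0 and 66.3 CPM became 96.05 and 95.03, a change of 0.11 ± 0.38 (0.81).

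miR-4805-3p, from chrII:1061648-1061741 on the plus strand, fell in 10 genotypes. Its 212 untreated counts became 0 with myo-3 and henn-1 present, at least 6.74-fold lower, so the fitted -9.51 there is no bound. For ASE with henn-1 present 1049 counts of miR-4805-3p became 3, a ratio of 28.4 with a counting interval of 9.69 to 138. With rab-3 it went from 15.1 and 14.9 to 1.09 and 0.818 CPM (-4.39 ± 0.48, adjusted p = 1.1e-09), with rgef-1 from 10.5 and 14.7 to 1.39 and 1.64 (-3.23 ± 0.49, 4.6e-07), with elt-2 from 14.1 and 15.1 to 4.22 and 3.30 (-1.99 ± 0.44, 0.00014) and with myo-3 henn-1(0) from 5.23 and 7.58 to 0.249 and 0.187 (-4.95 ± 0.61, 8.8e-09). Wild-type values of 15.1 and 15.0 CPM became 7.05 and 3.54, 3 counts in each oxidised library (-3.72 ± 0.58, 6.2e-07; -1.36 with RLE factors, and 0.0818 by DESeq2). The rps-5 worms were the other way, at 15.5, 11.9 and 10.7 CPM untreated and 40.5, 17.8 and 25.6 oxidised; their groups did not overlap, but the rise of 0.89 ± 0.34 (0.024) was not called without library 36209 (0.49, 0.247) or with RLE factors (0.65, 0.085). The fall with ASE henn-1(0), from 9.73 and 9.01 to 4.45 and 3.32 CPM (-1.91, 0.0063), was not called without library 42750 (0.0748). The interaction with driver was past the threshold for each driver tested against rps-5: -4.28 ± 0.44 for the mean of the 3 neuronal drivers (adjusted p = 8.4e-10), -2.89 ± 0.55 for elt-2 (4.1e-05), -4.54 ± 0.66 for myo-2 (5.5e-07; -3.87 without library 42754, -6.15 without 42756), -5.85 ± 0.70 for myo-3 (1.1e-08) and -2.81 ± 0.65 for ASE (0.00083).

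Both arms of mir-4806, in an intron of ras-1 (chrII:12346299-12346381, minus strand), were highest in oxidised libraries of the body wall muscle driver. miR-4806-3p went from 2.22 and 1.5 to 58.2 and 47.0 CPM in myo-3 null worms (4.83 ± 0.51, adjusted p = 2.3e-10) and from 2.11 and 1.07 to 45.7 and 32.5 CPM in myo-3 worms with henn-1 present (4.54 ± 0.52, 1.4e-09; 5.12 without library 49401). It also rose with myo-2, from 1.59 and 1.69 to 16.6 and 17.8 (3.40 ± 0.50), with rgef-1, from 1.62 and 1.06 to 14.3 and 17.5 (3.36 ± 0.49), with rab-3 and unc-31, and with rps-5, from 3.03, 1.56 and 1.92 to 10.5, 9.79 and 4.90 (1.65 ± 0.38, 0.00048). With elt-2, 1.52 and 1.16 CPM against 2.68 and 2.38 gave 0.87 ± 0.50 (0.11), and 1.67 with RLE factors, where it was called (0.00172). The rise with myo-3 henn-1(0) exceeded that with rps-5 by 3.18 ± 0.60 (adjusted p = 2.3e-05). In the wild type, at 1.62 and 1.04 CPM untreated, 1 count was left after oxidation; the change was called lower on the TMM scale (-2.81, 0.015) and not with RLE factors (-0.43, 0.792).

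The partner miR-4806-5p stood at 2.17 and 1.86 CPM untreated and 53.2 and 50.5 oxidised in myo-3 null worms (4.71 ± 0.67, adjusted p = 1.8e-07), and at 1.24 and 0.536 against 27.3 and 16.6 with henn-1 present (4.54 ± 0.73, 1.6e-06; 5.27 without library 49401, 3.90 without 49402). Its rise with myo-3 henn-1(0) exceeded that with rps-5 by 3.03 ± 0.80 (0.0015). The calls with unc-31, rab-3 and myo-2 were each lost when 1 library was left out. Both oxidised wild-type libraries had 0 counts of it, and its 120 untreated counts make it at least 2.88-fold lower there; that call was lost with RLE factors (0.221) and without library 34093 (0.0836).

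**Figure D4:**
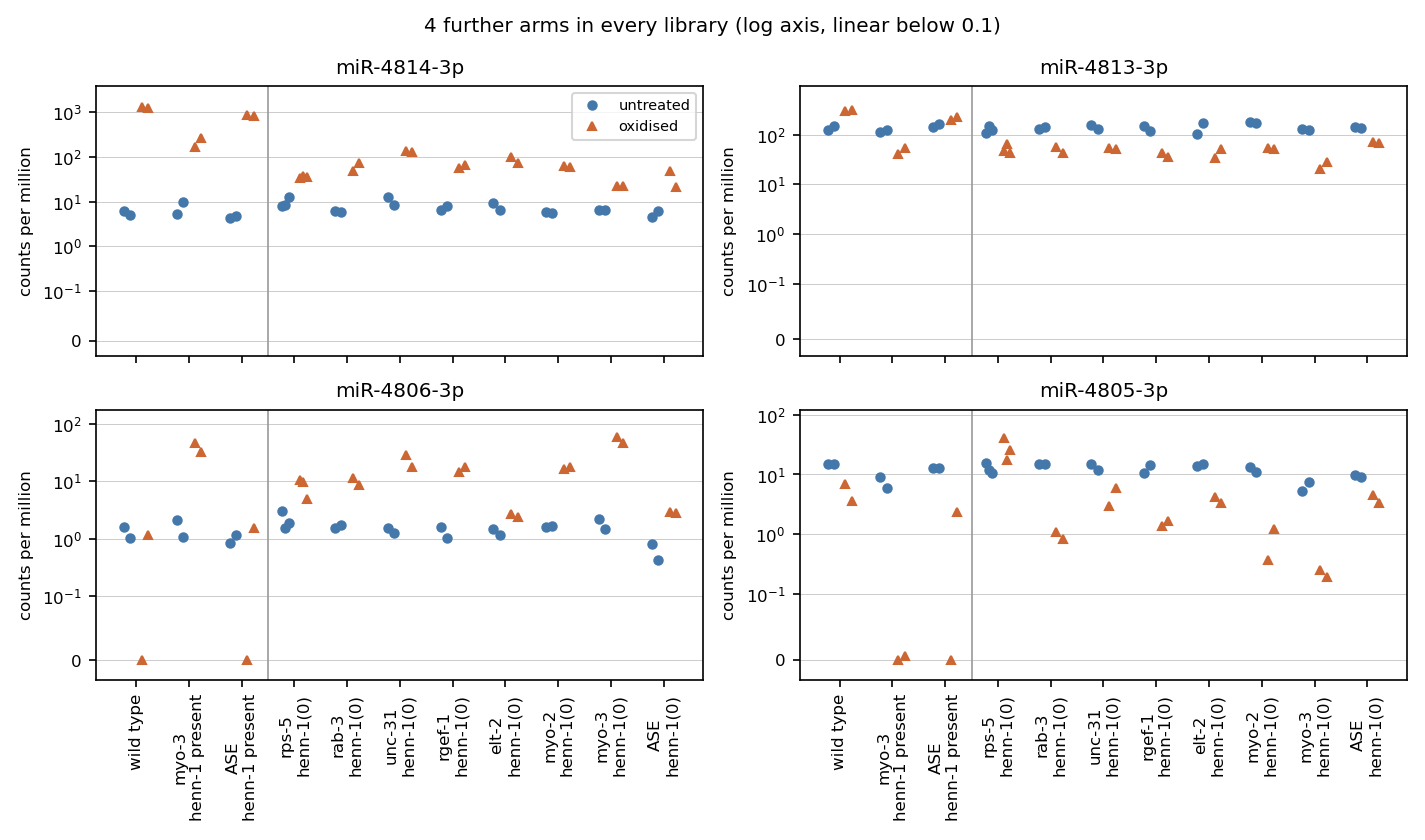
CPM per library of miR-4814-3p, miR-4813-3p, miR-4806-3p and miR-4805-3p in the 11 genotypes, on an axis that is logarithmic above 0.1 and linear below; circles are untreated and triangles oxidised libraries. miR-4814-3p is higher after oxidation in every genotype, miR-4806-3p is highest in the oxidised myo-3 libraries (32.5 to 58.2), and miR-4805-3p lies lower after oxidation in all genotypes but rps-5.

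The chromosome X stretch holds mir-4807, mir-4808, mir-4809, mir-4810b, mir-4810a, mir-4925, mir-4923b, mir-4923a and mir-4921 in this order, together with mir-2220, which is outside the number range. Their 3p arms did not move together. miR-4807-3p rose with rgef-1 from 8.36 and 11.0 to 63.2 and 63.1 CPM (2.51 ± 0.36, adjusted p = 1.4e-07), with elt-2 from 9.70 and 10.2 to 37.9 and 38.3 (1.88 ± 0.35, 1.3e-05) and with rps-5 from 9.56, 7.99 and 8.10 to 31.4, 24.0 and 24.7 (1.38 ± 0.28, 0.00012). With ASE henn-1(0) it fell from 12.3 and 10.6 to 3.96 and 3.79 CPM, 4 counts each (-2.20 ± 0.46, 0.00018). With myo-2, 10.3 and 8.30 CPM became 4.06 and 2.22 (-1.63 ± 0.40, 0.00052), a call lost with RLE factors (-0.39, 0.362).

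miR-4923b-3p rose with rgef-1 from 1.75 and 2.16 to 27.5 and 26.3 CPM (3.58 ± 0.48, adjusted p = 4.7e-08), with elt-2 from 2.83 and 2.25 to 20.8 and 16.7 (2.83 ± 0.47, 1.8e-06), with rab-3 from 2.25 and 1.89 to 18.0 and 12.1 (2.43 ± 0.45, 1.4e-05) and with rps-5 from 3.45, 2.24 and 3.76 to 14.1, 7.88 and 11.0 (1.57 ± 0.37, 0.00057). With myo-2 the values of 1.5 and 1.77 untreated and 4.43 and 1.33 oxidised overlapped (0.67 ± 0.55, 0.28; 1.9 with RLE factors, where it was called, 0.0014). miR-4810b-3p rose with rgef-1 from 11.2 and 8.78 to 38.1 and 31.3 CPM (1.62 ± 0.34, 9.1e-05) and with rps-5 (0.95 ± 0.28, 0.0048). miR-4808-3p rose with rgef-1 from 17.3 and 17.7 to 51.7 and 62.9 (1.5 ± 0.45, 0.0034) and with rps-5 (1.31 ± 0.36, 0.003). On the TMM scale miR-4810b-3p rose in 4 genotypes and fell in 5, and miR-4808-3p rose in 2 and fell in 5. Wild-type changes on the TMM scale were -4.56 ± 0.58 for miR-4810b-3p, on 667 untreated and 2 oxidised counts, and -3.59 ± 0.60 for miR-4808-3p. With DESeq2 no member was called lower in the wild type, so the calls of both arms were lost. The falls of both with myo-3 henn-1(0) changed sign with RLE factors.

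The neighbours miR-4925-3p and miR-4810a-3p fell in the rgef-1 and rps-5 libraries, where miR-4810b-3p and miR-4808-3p rose. miR-4925-3p went from 8.30 and 10.1 to 0.844 and 1.04 CPM with rgef-1 (-3.48 ± 0.53, adjusted p = 5.6e-07), from 12.4, 10.2 and 9.27 to 2.70, 1.64 and 1.60 with rps-5 (-2.67 ± 0.39, 5.4e-07), and from 12.0 and 8.21 to 1.10 and 0.561 with elt-2 (-3.56 ± 0.52, 2.4e-07; -4.17 without library 36213). miR-4810a-3p fell with rab-3 from 6.24 and 5.42 to 0.823 and 0.927 CPM (-3.18 ± 0.40, 2.0e-08), with rgef-1 from 5.87 and 6.53 to 1.57 and 1.49 (-2.20 ± 0.42, 1.9e-05) and with rps-5 from 7.57, 6.57 and 6.77 to 5.12, 4.18 and 3.60 (-0.96 ± 0.30, 0.0084). miR-4809-3p fell with rab-3 from 6.78 and 7.29 to 2.41 and 1.04 CPM (-2.42 ± 0.41, 3.8e-06; -3.29 without library 32797), and with rps-5, at 5.72, 5.76 and 4.26 against 5.76, 4.80 and 3.70, it differed by -0.42 ± 0.33 (0.28). In ASE henn-1(0) worms miR-4925-3p stood at 6.19 and 7.61 CPM untreated and 3.96 and 4.74 oxidised (-1.31 ± 0.58, 0.074).

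The 5p arms of the stretch were rare, and 5 of them rose in several genotypes. miR-4810b-5p averaged 0.118 CPM untreated and rose in 6 genotypes, with rab-3 from 0.214 and 0.0707 to 4.06 and 4.31 CPM (4.45 ± 0.63, adjusted p = 2.5e-07) and with rgef-1 from 0.125 and 0.184 to 5.55 and 4.18 CPM (4.70 ± 0.68, 3.2e-07). With elt-2 it had 2 untreated and 32 oxidised counts, a ratio of 26.5 with a counting interval of 6.75 to 228. Its rises with rps-5, unc-31 and myo-3 henn-1(0) were lost without library 42746 (1.86, 0.0555), 32953 (3.16, 0.0955) and 49405 or 49408 (1.4 and 1.5 on the log2 scale). miR-4808-5p rose in 6 genotypes. With rgef-1 it went from 0.187 and 0.276 to 5.79 and 6.56 CPM (4.45 ± 0.54, adjusted p = 9.4e-09), with rab-3 from 0.642 and 0.589 to 3.86 and 3.00 (2.03 ± 0.44, 0.00012), and with rps-5 from 0.378, 0.339 and 0.501 to 2.28, 1.16 and 1.5 (1.77 ± 0.43, 0.00093). All oxidised libraries of miR-4808-5p in the wild type and in ASE henn-1(0) held 0 counts. The differences of miR-4808-5p between myo-3 worms with henn-1 present and the wild type (7.36, 0.021) and between ASE and rps-5 in null worms (-7.79, 0.014) are therefore no bounds. Both were lost with RLE factors (0.132 and 0.0525) and with DESeq2 (0.25 and 0.111) and without the filter on low counts. The first was also lost without library 32793, 32794, 34093, 49402, 49403 or 49404, and the second without 42748 or 42750.

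miR-4923b-5p, at 0.372 CPM, rose in 4 genotypes with no call lost when 1 library was left out. With rgef-1 it went from 0.437 and 0.322 to 4.70 and 4.03 CPM (3.33 ± 0.57, adjusted p = 3.3e-06), and with rab-3 from 0.678 and 0.495 to 4.45 and 3.98 (2.40 ± 0.49, 5.5e-05). Its rise with the neuronal drivers exceeded that with rps-5 by 2.15 ± 0.63 (0.0037), a call lost without library 42745 (1.2, 0.16). miR-4807-5p rose in 7 genotypes, from 4 and 6 to 79 and 18 counts with rab-3 (3.05 ± 0.68, 0.00016). With rgef-1 it had 1 untreated and 31 oxidised counts, a ratio of 68.0 with a counting interval of 11.3 to 2772. Its calls were lost without library 36209 (rps-5), 32950 or 32953 (unc-31), 49405, 49406 or 49408 (myo-3 null), and 40634 or 40637 (ASE with henn-1 present). miR-4809-5p, which averaged 0.0946 CPM, rose in 5 genotypes, but the calls were lost without library 32796 or 32797 (rab-3), 37024 (rgef-1), 36212 or 36213 (elt-2), and 40635 (ASE with henn-1 present). With unc-31 miR-4809-5p had 1 untreated and 16 oxidised counts, a ratio of 19.8 (3.08 to 832).

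**Figure D5:**
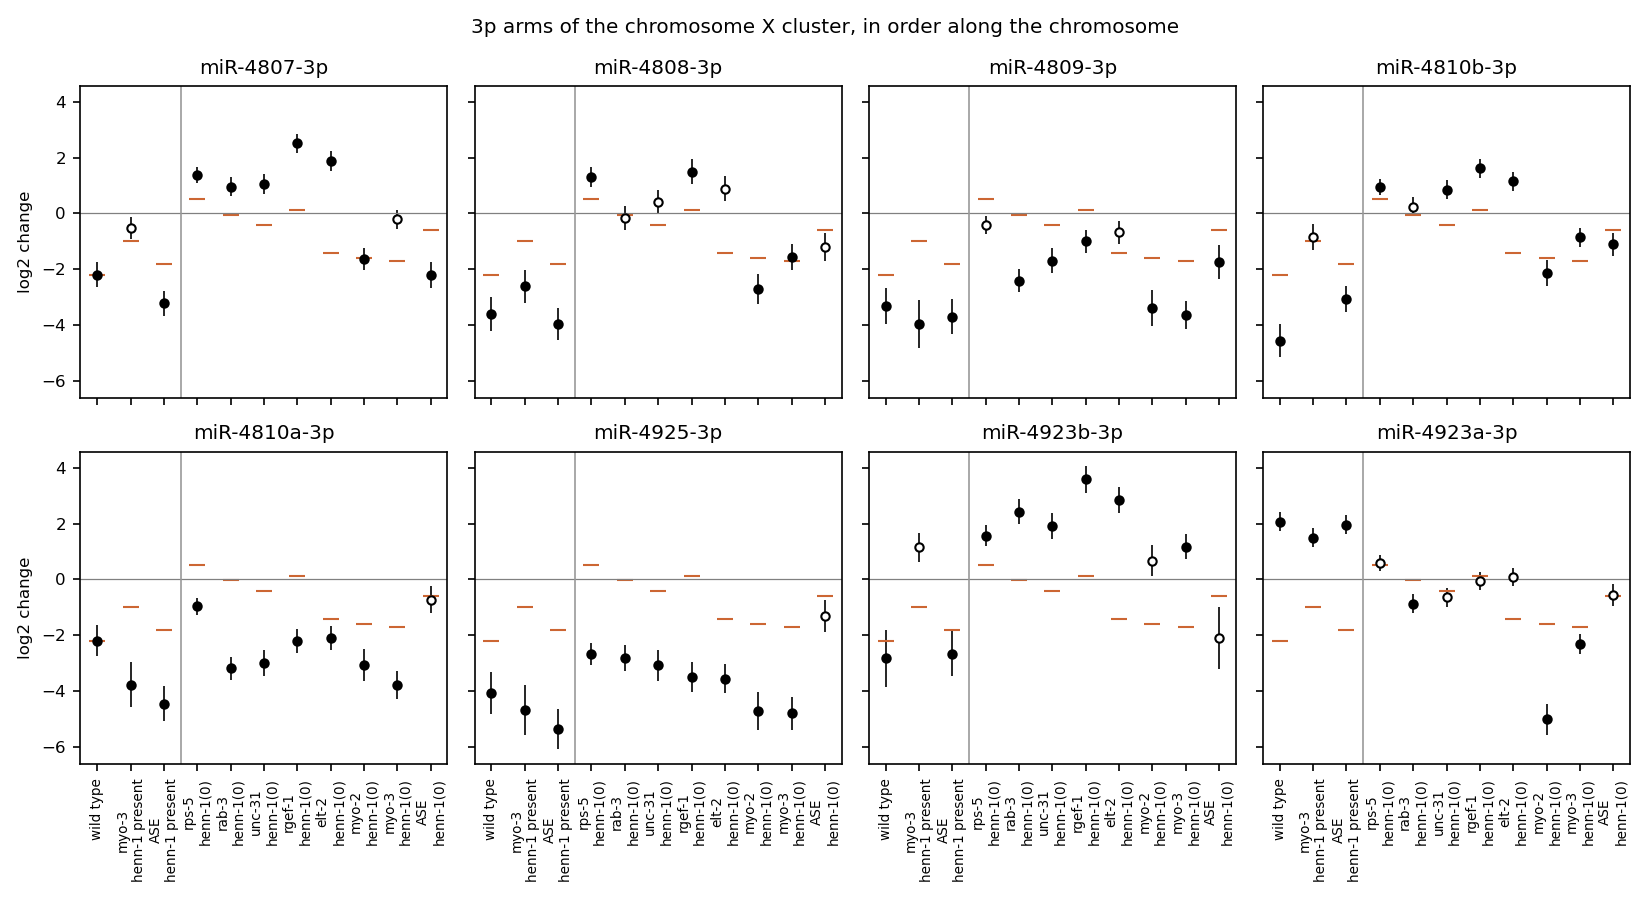
Log2 change on oxidation (TMM scale, ± SE) of 8 3p arms of the chromosome X stretch, 1 panel per arm, in genome order. Genotypes run along the horizontal axis of each panel. Filled points are past the threshold, and the short horizontal mark at each genotype is the median of all tested arms. With rgef-1 miR-4807-3p (2.51) and miR-4923b-3p (3.58) lie above the mark and miR-4925-3p (-3.48) below it.

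The other whole-intron hairpins had lower counts and wide spreads between lines. In rps-5 worms miR-4920-3p ranged from 1.15 to 13.4 CPM untreated and from 0.548 to 13.3 oxidised (-0.38 ± 0.67, adjusted p = 0.66), and with rab-3 miR-4920-3p fell from 3.10 and 2.05 to 0.227 and 0.109 CPM (-4.19 ± 1.06, 0.0012; -4.96 without library 32797). The fall of the arms of mir-4920 relative to rps-5 was past the threshold for the neuronal drivers: -3.96 ± 0.79 for miR-4920-5p (adjusted p = 8.3e-05; -3.19 without library 36209) and -3.63 ± 1.04 for miR-4920-3p (0.0045; -2.54 without 36209, -4.50 without 36208, -4.66 without 32953). miR-4927-5p fell with rps-5 from 5.40, 1.96 and 6.18 to 1.85, 0.0685 and 2.1 CPM (-1.98 ± 0.64, 0.0096; -1.35 without library 42746), whereas miR-4927-3p, at 14.7, 3.47 and 13.2 against 20.8, 5.82 and 22.0, had all oxidised above all untreated libraries within each line but was not called (0.44 ± 0.44, 0.41; 0.40 ± 0.29 with the line as a block, 0.242). miR-4926-3p stood at 6.53, 2.37 and 3.84 CPM untreated and 16.6, 3.01 and 7.70 oxidised with rps-5 (0.87 ± 0.49, 0.13).

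Further members changed with some drivers. miR-5553-3p, from chromosome X, rose with rab-3 from 0.143 and 0.0943 to 2.64 and 4.09 CPM (4.31 ± 0.67, adjusted p = 1.1e-06) and with elt-2 from 0.0505 and 0.363 to 2.52 and 2.95 (3.75 ± 0.73, 3.0e-05; 2.70 without library 36212 and 5.59 without 37020). With rgef-1 miR-5553-3p had 1 untreated and 34 oxidised counts, a ratio of 74.6 with a counting interval of 12.5 to 3032. miR-4812-5p rose with rps-5 from 1.18, 0.542 and 1.17 to 5.48, 2.67 and 5.60 CPM (2.00 ± 0.41, 0.00013) and fell with myo-3 henn-1(0) from 1.66 and 2.22 to 0.199 and 0.373 (-2.65 ± 0.64, 0.00041), the latter -3.32 without library 49408 and not called with RLE factors (-0.97, 0.203); the difference between these was -4.65 ± 0.76 (2.4e-06; -5.31 without library 49408). miR-5551-5p fell with myo-3 henn-1(0) from 8.69 and 9.15 to 1.49 and 1.4 CPM (-2.58 ± 0.46, 7.2e-06), and with rps-5, at 14.0, 6.64 and 10.3 against 20.8, 8.84 and 15.8, differed by 0.32 ± 0.33 (0.42). miR-4929-3p, from an intron of E01G4.3, rose with ASE and henn-1 present from 1.16 and 0.505 to 17.4 and 14.2 CPM (2.36 ± 0.59, 0.00057; 3.04 without library 40634) and fell with rab-3 from 3.53 and 2.1 to 0.0567 and 0.109 (-5.47 ± 0.72, 4.2e-08).

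Some rare arms fell to few or no counts. miR-5593-1-3p, which is one signal with miR-5593-2-3p and had fractional counts in 24 libraries, fell in 7 genotypes. With rab-3 its 49 untreated counts met 0 oxidised ones, at least 16.8-fold lower, and with rgef-1 34 met 0 after rounding, at least 5.17-fold lower. The fall with the neuronal drivers exceeded that with rps-5 (-4.79 ± 0.96, adjusted p = 0.00011), a size that is no bound. The falls in the wild type, myo-2 and myo-3 henn-1(0) were lost with RLE factors (0.272, 0.14 and 0.116), and the one with unc-31 without library 32950 or 32953.

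miR-4811-3p, between protein-coding genes on chromosome X, averaged 0.762 CPM and fell in 8 genotypes. With rps-5 33 counts became 3, a ratio of 10.9 with a counting interval of 3.42 to 55.6, and with elt-2 25 became 0, at least 5.04-fold lower. With myo-3 henn-1(0) 21 became 0, at least 3.80-fold lower, although DESeq2 did not call it (0.0541). The falls of miR-4811-3p in the wild type, ASE with henn-1 present and myo-2 were lost with RLE factors (0.306, 0.213 and 0.152), the last also with the line as a block (0.0555), and those with rab-3 and rgef-1 without library 32796 or 32798, and 37022, 37023 or 37025. Its partner miR-4811-5p stood at 0.262 and 0.360 CPM untreated and 7.05 and 10.6 oxidised in the wild type (2.80 ± 0.69, 0.00057), a rise lost without library 34093 (2.12, 0.0971). With ASE and henn-1 present it was called higher with RLE factors (3.44, 0.000755) but not on the TMM scale (1.08, 0.211).

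Both arms of the whole-intron hairpin mir-4924 fell with rps-5 and rab-3. miR-4924-5p went from 31 to 3 counts with rps-5, a ratio of 10.2 (3.20 to 52.4), and from 32 to 1 with rab-3, a ratio of 33.0 (5.51 to 1344). With rgef-1 its 14 counts became 0, a fall lost without library 37022, 37023 or 37025. miR-4924-3p went from 30 to 2 counts with rab-3, a ratio of 15.5 (3.92 to 134), and from 26 to 1 with rps-5, of which 22 came from library 36208, without which the call was lost (-2.42, 0.143). Its falls with unc-31 and myo-3 henn-1(0) were lost under several alternatives, the latter also with the block (0.0504). miR-4921-3p, the last of the chromosome X stretch, fell with rab-3 from 0.607 and 0.354 to 0.170 and 0 CPM (-2.47 ± 0.70, adjusted p = 0.0023). With myo-3 henn-1(0) its 14 counts became 0, at least 2.53-fold lower, a call lost with RLE factors (0.0676), as was the difference from rps-5 (0.0735).

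The arms of mir-5550, which lies opposite an intron of kgb-1, each rose in 8 genotypes from very low levels. miR-5550-3p, which had fractional counts in all 46 libraries, rose with rab-3 from 0.187 and 0.0547 to 1.32 and 1.66 CPM (3.29 ± 0.71, adjusted p = 0.00012). With elt-2 it went from 2 to 44 rounded counts, a ratio of 36.4 (9.49 to 310). Its call with rps-5 was lost with RLE factors (0.0785), and that with myo-3 henn-1(0) was lost without library 49406, where the value became -2.17, or 49407. miR-5550-5p had 0 untreated counts with rps-5 and with rgef-1, and 11 and 10 oxidised ones, at least 3.69-fold and 7.31-fold higher. With rab-3 miR-5550-5p went from 2 to 32 counts, a ratio of 15.5 (3.96 to 134). With unc-31 all its 10 oxidised counts came from library 32953, and with myo-2 it had 2 oxidised counts and no fold is given.

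At most 6 oxidised counts stood behind several calls. miR-4934-3p had 0 untreated and 4 oxidised counts with ASE and henn-1 present, and DESeq2 did not call it (0.42). miR-5551-3p with ASE henn-1(0) had 2 and 5 counts, a ratio of 21.2 (3.48 to 223), and lost the call without library 42747 or 42750. miR-5547-3p with ASE and henn-1 present had 3 rounded counts before and after. With elt-2 miR-5553-5p had 0 untreated counts and 6 oxidised ones, all in library 36213. miR-5552-3p was lower with myo-2 than with rps-5 (-6.88 ± 2.63, adjusted p = 0.028), a call lost with RLE factors (0.134), with no filter (0.0987) and without library 36208, 42753, 42754 or 42756; its rounded oxidised counts with myo-2 were 0, so the size is no bound.

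Compared with the broad rps-5 driver in null worms, more members were lower than higher with the tissue drivers on the TMM scale, as were all arms. With RLE factors, given below, more members were higher than lower with elt-2, myo-2 and myo-3. The mean of the neuronal drivers had 5 members higher and 14 lower (8.2% and 23%, beside 27.1% and 30.1% of all tested arms; 57.2% either way), elt-2 2 and 7 (3.28% and 11.5%, beside 16.7% and 37.5%, or 54.2%), myo-2 4 and 15 (6.56% and 24.6%, beside 10.6% and 38.2%, or 48.9%), myo-3 3 and 15 (4.92% and 24.6%, beside 14.7% and 45.3%, or 60%) and ASE 3 and 8 (4.92% and 13.1%, beside 17.2% and 18%, or 35.2%). These 5 comparisons share the rps-5 libraries. With RLE factors the splits became 5 and 7 for ASE (8.2% and 11.5%, beside 23.3% and 7.09% of all arms) and 12 and 3 for myo-3 (19.7% and 4.92%, beside 27.8% and 21%). They were 9 and 6 for myo-2 (14.8% and 9.84%, beside 22.8% and 18.2%) and 13 and 6 for elt-2 (21.3% and 9.84%, beside 27.6% and 28.4%). For the neuronal mean they were again 5 and 14 (8.2% and 23%, beside 28.6% and 29.1%). Leaving out library 42756 gave 11 members in all for myo-2, and leaving out 42750 gave 7 for ASE. These directions held on both scales for every one of the 5: miR-5546-3p was lower than with rps-5, by -2.92 ± 0.36 (neuronal mean, adjusted p = 2.6e-08), -3.30 ± 0.52 (ASE; -3.92 without library 42748), -5.05 ± 0.51 (myo-3), -3.24 ± 0.49 (myo-2) and -2.82 ± 0.47 (elt-2), and miR-4805-3p was lower, as above. miR-4814-3p was higher by 1.21 ± 0.39 (neuronal mean, 0.0086), 1.76 ± 0.51 (elt-2, 0.0034) and 1.77 ± 0.52 (myo-2, 0.0043).

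Between myo-3 worms with henn-1 present and the wild type, 6 members were higher and 0 lower (9.84% and 0%, beside 18.2% and 2.78% of all tested arms, or 21% either way). With RLE factors 2 were higher and 10 lower (3.28% and 16.4%, beside 11.6% and 32.9%), and 11 members differed without library 49402 and 3 without 34093. The 2 that kept their direction and call on both scales were miR-4806-3p, higher by 7.34 ± 1.00 (adjusted p = 1.5e-07; 4.84 without library 49402 and 12.14 without 34093), and miR-4806-5p, whose wild-type oxidised libraries held 0 counts.

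The 29 members that were not tested averaged between 0.313 CPM (miR-4937-5p) and 0.000549 CPM (miR-5548-3p) in untreated libraries. Among them are both arms of mir-4931, mir-4932, mir-4933, mir-4935, mir-4937, mir-5548 and mir-5595 and the minor arms miR-4805-5p, miR-4812-3p, miR-4921-5p, miR-4926-5p, miR-4929-5p and miR-5549-5p. The arms miR-5595-3p and miR-4933-3p never reached 1 count in a library. The most abundant of the 29, miR-4937-5p, had 163 counts over all untreated libraries and 3 over all oxidised ones. Of the partners of the arms described above, miR-5552-5p averaged 0.00809 CPM and miR-5593-1-5p and miR-5593-2-5p 0.0869 CPM each.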

How the data were processed

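The deposited expected counts per microRNA arm, 1 table per library, were made by the authors; the submitters' processing notes name cutadapt 1.2.1, HTSeq 0.6.1p1 and the build WBcel235. Of the 90 arms, 37 had fractional counts in at least 1 library; the aligner and the rule for splitting reads were not given in the sources used here. Counts were rounded to whole numbers. All 46 libraries entered 1 edgeR 4.0.16 quasi-likelihood fit (R 4.3.3, limma 3.58.1; robust, TMM, filter at a minimum count of 10, 22 group means, 24 residual degrees of freedom), with Benjamini-Hochberg adjustment over 395 arms in each of 21 comparisons. CPM is relative to the summed counts of the 473 worm arms. Floors and bounds use 3 counts over the group, and intervals are exact 95% intervals on rounded counts that cover counting error only, since reads without molecular identifiers are not independent molecules.

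All members were open to naming. Named were the 10 highest by untreated CPM, up to 3 called members with the largest rise and fall of the same sign in every oxidised library of each comparison, up to 3 called each way between genotypes, and the other arm of the hairpin. This named 48 arms and 13 other arms, which are given with values in some or all of their comparisons. The 48 include the markers lsy-6-3p, miR-124-3p, miR-1-3p and miR-60-3p, which were not set aside and took places of members in some comparisons. Members outside these limits were chosen after their values were seen. The members and lists were chosen with earlier results of these data known.

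Alternatives were RLE factors, total counts, no filter, DESeq2 1.42.0, each genotype's own libraries, the transgenic line as a block, and each library left out in turn with the same arms kept. The labels tie an oxidised to an untreated library of the same line, which pairs them (correlation of deviations 0.014 to 0.651 over genotypes); the wild-type libraries were not paired. In the 26 pairs of libraries of the same group no 2 were identical or agreed within sampling noise. Positions are from the Ensembl annotation of WBcel235. The RefSeq annotation served only to find 2 hairpins by name, and in it the mir-4816 locus has another microRNA number.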

Additional observations from a re-analysis of the deposited data

Results flagged for a closer look

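The change on oxidation differed between null worms and worms with henn-1 present, by the interaction test within the myo-3 transgene, for miR-4936-3p (log2 difference -8.80, adjusted p = 1.3e-12), miR-5549-3p (-8.14, 1.8e-06) and miR-4811-5p (-7.31, 0.0079). Null worms and worms with henn-1 present were different strains, for ASE as well, so henn-1 and the strain cannot be told apart. For miR-4811-5p the call was lost without library 49404 (-6.59, 0.158), and both oxidised null libraries held 0 counts.

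Within the ASE transgene the largest differences were those of miR-5547-5p (-10.79, adjusted p = 0.00015, with 0 counts in both oxidised null libraries), miR-4936-3p (-5.83, 5.6e-09) and miR-5549-3p (-5.71, 2.5e-05). In the other direction stood miR-5551-3p (8.66, 0.020), miR-4813-5p (4.14, 0.0039) and miR-4925-3p (4.05, 0.00098). The call of miR-5551-3p was lost with RLE factors (9.01, adjusted p = 0.13), total counts (9.23, 0.0696) and DESeq2 (3.97, 0.133) and without library 40637, 42747 or 42750; both oxidised ASE libraries with henn-1 present held 0 counts of it, so its size is no bound. Those of miR-4813-5p and miR-4925-3p were lost with RLE factors (2.26 and 2.18, adjusted p = 0.161 and 0.0896) and with DESeq2.

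Between myo-3 worms with henn-1 present and the wild type, the interaction test gave 12.39 for miR-4806-5p (adjusted p = 7.8e-06), 7.36 for miR-4808-5p (0.021) and 7.34 for miR-4806-3p (1.5e-07). The call of miR-4808-5p was lost with RLE factors, total counts, no filter and DESeq2. The wild type carries no transgene, so the transgene and the line cannot be told apart in this comparison.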

How the results depend on the processing

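Of 480 called results, 13 reversed and 93 lost the call with RLE factors, 13 and 103 with DESeq2, 4 and 46 with total counts, and 3 and 95 without the filter on low counts; of 296 with only the genotype's own libraries, 5 reversed and 57 lost it. With the transgenic line as a block none reversed and 10 lost the call, while 37 results were called with the block alone. 192 results lost the call when at least 1 library was left out, and the cause of these changes was not tested. Oxidised libraries of 425711 to 1444791 counts limit arms under about 2.08 to 7.05 CPM in worms with henn-1 present.

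Counts of members called moved as follows. With own libraries they were 22 in the wild type, 16 with rps-5, 20 with myo-2 and 22 with ASE and henn-1 present. For myo-3 null against henn-1 present they were 11 with the block and 11 with DESeq2, from 7. For myo-3 with henn-1 present against the wild type they were 12 with RLE factors, 15 with total counts, 16 without the filter and 11 with DESeq2, from 6. For ASE with henn-1 present against the wild type 1 was called with total counts, without the filter and with DESeq2, from 0. For elt-2 against rps-5 they were 19, 16 and 17 with RLE factors, no filter and DESeq2, from 9. With 1 library left out the counts ranged from 15 to 36 for unc-31, 21 to 27 for myo-2, 3 to 9 for ASE henn-1(0), 6 to 11 for myo-3 null against henn-1 present, 3 to 11 for myo-3 with henn-1 present against the wild type, 11 to 21 for myo-2 against rps-5 and 7 to 12 for ASE against rps-5.

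The following log2 values changed sign. In the wild type with RLE factors they became 1.41 for miR-4813-3p, 0.16 for miR-5551-5p, 0.29 for miR-4812-5p, 0.18 for miR-4807-3p and 0.19 for miR-4810a-3p, and with DESeq2 1.42, 0.17, 0.29, 0.17 and 0.21; miR-4813-3p was also at 1.15 with total counts, 1.05 without the filter and 0.78 with own libraries. With ASE and henn-1 present RLE factors, own libraries and DESeq2 gave 0.99, 0.60 and 0.99 for miR-4813-3p, 1.14, 0.74 and 1.13 for miR-5551-5p and 0.53, 0.16 and 0.54 for miR-4812-5p, and total counts gave 0.48 for miR-4813-3p and 0.64 for miR-5551-5p. With myo-3 henn-1(0) RLE factors and DESeq2 gave 0.16 and 0.16 for miR-4808-3p and 0.85 and 0.85 for miR-4810b-3p, which was at 0.16 without the filter and 0.38 with own libraries. Against rps-5, myo-3 gave 0.37 and 0.37 for miR-4807-3p and 0.13 and 0.13 for miR-4810b-3p with RLE factors and DESeq2. For myo-3 with henn-1 present against the wild type miR-4807-3p was at -0.37 with total counts, -0.75 without the filter and between -0.29 (without library 49402) and 2.07 with 1 library left out. For ASE null against henn-1 present miR-4816-5p was at -0.0554 with RLE factors and -0.0713 with DESeq2. With 1 library left out the wild-type change of miR-4934-3p ranged from -1.56 (without 34093) to 6.67, that of miR-5550-5p from -2.77 (without 34093) to 4.34, and that of miR-5550-3p with myo-3 henn-1(0) from -2.17 (without 49406) to 5.68.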
